A study of Ictidomys tridecemlineatus with 31 samples.

Results

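The comparison described here set the kidneys of 13-lined ground squirrels that were entering torpor (Ent) against the kidneys of animals in interbout arousal (IBA), the short warm interval between torpor bouts. Its members were the 10 animals whose hibernation state is given as Ent or IBA, of 31 animals in the table, and all 12863 genes of the table were compared as Ent minus IBA. An IBA kidney was taken soon after body temperature had recovered during rewarming, and an Ent kidney while body temperature was falling again after an IBA. Each state had 5 animals (3 females and 2 males), of which 3 had TruSeq libraries and 2 Nugen libraries, and each library was 1 animal, so the errors below are those between animals. No engineered allele or experimental drug is named for the squirrels, and their ages are not given in the sources used here. All had been implanted with temperature recorders, and all were anesthetized with isoflurane, exsanguinated, and perfused with cold buffer before dissection. The other 4 states of the study, among them late arousing (LAr), spring dark (SpD), and summer active (SA) animals, entered the model. They serve to estimate the spread and the terms for sex and library kit, and are otherwise used for reference levels. A piece of 1 kidney was homogenized per animal, so that in this bulk RNA fewer cells of a type and less RNA per cell cannot be told apart.

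Torpor in small hibernators is a regulated fall in metabolism, heart rate, and body temperature, and it is broken at intervals by arousals in which the animal rewarms to a normal mammalian temperature. The kidney nearly stops filtering in torpor and is reperfused with warm blood at each arousal. Transcription and translation slow strongly in the cold and resume upon rewarming, so IBA is the phase in which much of the RNA of the torpor-arousal cycle is made. Ent follows it, as the tissue cools with the RNA made during the warm interval. RNA polymerase moves along a gene at a limited rate, so a transcript of a long gene takes longer to complete than that of a short gene.

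Values are batch-corrected regularized log (rlog) values on the log2 scale, so a difference of 1 is 2-fold. The medians of the animals over genes lay between 9.74 and 9.88, and no counts were used, so sequencing depth is unknown. The proximal tubule markers, which define the main epithelium of the cortex, were high in all 10 animals, at means between 13.85 and 15.1, as the tissue label says. One IBA animal, K104, had the highest mean of the 5 inner medulla markers (12.0, against 9.33 to 10.9 in the other 9 animals) and the lowest proximal tubule mean (13.9). Another IBA animal, K7, had the highest macrophage mean (9.72, against 8.44 to 8.96). K7 and the Ent animal K5 had the highest red blood cell means (11.1 and 10.9, against 8.99 to 9.82). These rest on only 2 genes, HBA1 and Slc4a1, and the latter is also in the intercalated cell list. Medians of gene lists that moved by more than 1.5-fold when an animal was left out are given with that value.

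At a Benjamini-Hochberg adjusted q under 0.001 in limma, 96 genes differed between Ent and IBA, of which 64 were lower and 32 were higher in Ent. That is 0.746% of the genes tested (0.498% lower and 0.249% higher). The differences were small, with a median of -0.48 among the genes that fell and 0.50 among those that rose. Only 2 rose and 2 fell at least 2-fold. At q under 0.05 there were 1689 genes (13.1%), 979 lower (7.61%) and 710 higher (5.52%), and over all genes the median difference was -0.0051. Of the 96 genes, 92 had 5 Ent values that did not overlap the 5 IBA values, whereas this held for 995 genes in the whole table (7.74%, of which 3.23% had Ent above and 4.51% Ent below). The count of 96 used the spread of all 29 animals in the fit. With the 10 Ent and IBA animals alone, no gene passed q under 0.001 in limma, 37 passed q under 0.05, and 2486 had an unadjusted p under 0.05. Leaving out a single Ent or IBA animal gave between 15 and 140 genes, and all 96 kept their sign and a q under 0.05 in each of these 10 fits, while 14 kept a q under 0.001 in all of them. The 96 genes were chosen in these same animals, so their lack of overlap and their kept signs describe them and are no support.

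**Figure D1:**
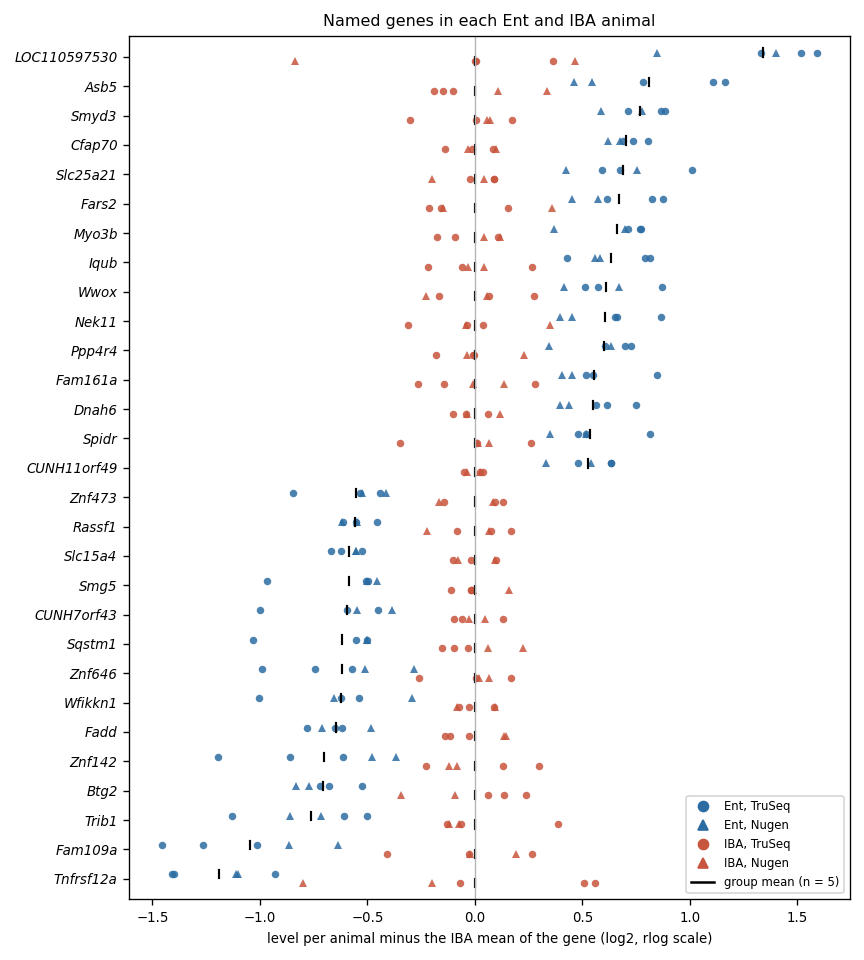
Level of 15 of the largest increases and 14 of the largest decreases among genes at q under 0.001 in each Ent and IBA animal, as the log2 rlog value minus the mean of the 5 IBA animals. Blue marks are Ent and red marks IBA animals, circles are TruSeq and triangles Nugen libraries, and black bars are group means. The genes were chosen for having no overlap between the states and the same sign in both kits, so their separation is set by the choice, and their differences run from LOC110597530 (1.34 higher in Ent) to Tnfrsf12a (-1.19).

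Among the genes lower in Ent at q under 0.001, the largest fall was that of a cytokine receptor. The genes named as the largest were required not to overlap between the states, so their lack of overlap describes them and is no support. Values are listed for the Ent animals K2, K5, K8, K155, and K167 and the IBA animals K1, K4, K7, K104, and K171, in that order, the last 2 of each being Nugen libraries. Tnfrsf12a, the receptor for the cytokine TWEAK, stood at 9.77, 9.29, 9.30, 9.59, and 9.59 in Ent and at 11.26, 10.63, 11.20, 10.50, and 9.90 in IBA. The IBA animals were spread over more than 1 log2 unit and all lay above the Ent animals. The difference was -1.19 (SE 0.21, q = 8.72e-04), and its mean in the 3 reference states (9.12 to 9.74) was close to that of Ent. Fam109a, which encodes a protein of endosomal trafficking, was the other called gene that fell at least 2-fold. It had 8.49, 8.74, 8.30, 8.89, and 9.12 in Ent and 10.02, 9.73, 9.35, 9.73, and 9.94 in IBA (difference -1.05, SE 0.17, q = 4.54e-04).

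Genes of cell death were among the decreases. Fadd, the adaptor that links death receptors to caspases, had 9.30, 9.44, 9.47, 9.37, and 9.60 in Ent and 9.97, 9.94, 10.05, 10.22, and 10.23 in IBA (difference -0.65, SE 0.07, q = 2.02e-05), with no overlap, and it kept a q under 0.001 whichever of the 10 animals was left out. Of 25 proapoptotic genes measured, 6 fell at q under 0.05 and none rose (24.0%, against 7.61% of all genes that fell). Beside Fadd these included Bcl2l11 (-0.47), Bak1 (-0.44), Bax (-0.30), and Dffb (-0.28), which encode BH3-only, pore-forming, and nuclease proteins of the death pathway. The median over the list was only -0.045, as 9 of its 25 members had a positive difference. It was 0.0037 without K7, -0.093 without K2, -0.083 without K5, and -0.028 without K104. Of 16 antiapoptotic genes, Cflar, which encodes an inhibitor of death receptor signaling that binds FADD, was the single one that passed. It was higher in Ent (11.86, 11.32, 11.80, 11.59, and 11.58) than in IBA (10.89, 11.08, 11.39, 10.83, and 10.74), with K5 in Ent below K7 in IBA (difference 0.65, SE 0.16, q = 0.00967).

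Other leading decreases were genes of growth arrest, signaling, and RNA surveillance. Btg2, an antiproliferative gene, had 9.84, 9.88, 10.04, 9.73, and 9.79 in Ent and 10.80, 10.62, 10.70, 10.47, and 10.22 in IBA (difference -0.70, SE 0.10, q = 2.64e-04). Trib1, a pseudokinase that directs proteins to a ubiquitin ligase, had 9.86, 9.75, 9.23, 9.49, and 9.64 in Ent and 10.74, 10.23, 10.29, 10.24, and 10.28 in IBA (difference -0.76, SE 0.13, q = 9.72e-04). Neither gene overlapped between the states, but the call of Trib1 is near the threshold, and its q rose to as much as 0.00505 when an animal was left out. Sqstm1, the autophagy receptor p62, had 13.38, 13.32, 12.85, 13.38, and 13.38 in Ent and 13.85, 13.72, 13.78, 13.94, and 14.10 in IBA (difference -0.62, SE 0.09, q = 2.76e-04). Smg5, a factor of nonsense-mediated mRNA decay, had 10.89, 10.88, 10.42, 10.93, and 10.88 in Ent and 11.37, 11.37, 11.27, 11.55, and 11.38 in IBA (difference -0.59, SE 0.08, q = 1.12e-04). In both genes 4 Ent animals were nearly equal and K8 was lower. Also among the 15 largest were Slc15a4, a lysosomal peptide transporter (-0.59), Rassf1, a tumor suppressor (-0.56), Wfikkn1, a secreted inhibitor (-0.62), and 3 zinc finger genes.

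Those 3 zinc finger genes, Znf142 (-0.70), Znf646 (-0.62), and Znf473 (-0.55), belong to a large family. Its genes encode DNA-binding proteins, most of them transcriptional regulators. Of 274 measured members of the zinc finger transcription factor family, 55 were lower in Ent at q under 0.05 (20.1%, against 7.61% of all genes) and 5 were higher (1.82%, against 5.52%), and 7 were lower at q under 0.001, where 0.498% of all genes were. Znf142 had 8.62, 8.37, 8.04, 8.76, and 8.87 in Ent and 9.53, 9.36, 9.004, 9.15, and 9.11 in IBA (SE 0.12, q = 9.51e-04). The median over the family was -0.11, with 203 members below 0 and 71 above. It was -0.14 in the TruSeq animals and -0.067 in the Nugen animals, and it stayed between -0.13 and -0.089 as each animal was left out.

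Genes of RNA processing and ribosome assembly fell more often than they rose, as did all genes together (7.61% lower and 5.52% higher). Of 60 ribosome biogenesis genes, 12 fell (20%) and none rose at q under 0.05, among them Nop56 of the box C/D small nucleolar particle (-0.37), Tcof1, a nucleolar factor of ribosomal RNA transcription (-0.33), and the small subunit processome proteins Utp11 (-0.29) and Utp4 (-0.25). The median was -0.14, and 49 of 60 members were below 0. In contrast, of 80 cytosolic ribosomal proteins, Rpl7l1, a ribosomal protein-like gene (-0.20), was the only one that passed, and 74 had a positive difference (median 0.090). That median was 0.20 in the TruSeq and -0.089 in the Nugen animals, and the difference between the kits was not tested for the list. It turned to -0.038 without K8, and it was 0.019 without K1 and 0.17 without K7. Of 80 RNA splicing factors, 12 fell (15%), led by Srsf3 (-0.50, q = 1.88e-04) and the heterogeneous nuclear ribonucleoproteins Hnrnph3 (-0.45), Hnrnpm (-0.41), and Hnrnph1 (-0.37). The 1 splicing factor that rose was Srsf5, which had 13.81, 13.90, 13.73, 13.80, and 13.81 in Ent and 13.37, 13.29, 13.27, 13.25, and 13.30 in IBA. Both groups were tight and well apart (difference 0.52, SE 0.11, q = 0.00491). Of 105 histone and chromatin modifiers, 12 fell (11.4%) and 3 rose (2.86%). Their median was -0.11, at -0.17 in the TruSeq and 0.014 in the Nugen animals, and it was -0.034 without K1 and -0.063 without K8. Those that fell included the histone deacetylase Hdac4 (-0.50), the histone methyltransferases Dot1l (-0.40) and Ehmt1 (-0.38), and the acetyl-lysine readers Brd2 (-0.33) and Brd3 (-0.32), and those that rose were Kat2b (0.35), Sirt3 (0.26), and Kat8 (0.20).

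Heat shock chaperones of the cytosol fell in 9 of 42 cases (21.4%, against 7.61% of all genes) and rose in none. Chaperones fold other proteins and are induced by heat and by misfolded protein. Hsp90aa1, the inducible HSP90, had 13.75, 13.95, 13.85, 13.88, and 13.68 in Ent and 14.19, 14.22, 14.27, 14.15, and 14.14 in IBA, with no overlap and little spread within either state (difference -0.37, SE 0.07, q = 0.00183). HSPH1 (-0.63), a nucleotide exchange factor of HSP70, Stip1 (-0.42), which joins HSP70 to HSP90, the small heat shock protein Hspb1 (-0.85), and the transcription factor Hsf1 (-0.26), which drives these genes, were also lower. Hspa1b, an inducible HSP70, had 10.13, 9.95, 9.26, 10.23, and 9.79 in Ent and 11.64, 10.67, 9.84, 10.82, and 10.35 in IBA, and with this spread the difference of -0.79 (SE 0.29) had a q of 0.0729. Hspa1b has a nearly identical paralog, so reads can be split between the copies. The chaperone median was -0.13, and it was -0.16 in the TruSeq and -0.15 in the Nugen animals. In the endoplasmic reticulum, 2 of 37 unfolded protein response genes fell (Dnajb9, -0.39, and Pdia4, -0.23), and 1 rose (Sel1l, 0.20), shares of 5.41% and 2.703% that are below those of all genes.

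Immediate early genes, which are switched on within minutes of a stimulus and lost quickly, included 9 of 40 that fell (22.5%, against 7.61% of all genes) and 2 that rose at q under 0.05. Jun, a subunit of the AP-1 transcription factor, had 11.23, 10.95, 10.46, 10.59, and 10.51 in Ent and 12.04, 11.89, 11.80, 10.93, and 10.94 in IBA. The 3 TruSeq IBA animals were far above the rest. The 2 Nugen IBA animals fell within the range of the TruSeq Ent animals but above both Nugen Ent animals. The difference was -0.77 (SE 0.15, q = 0.00231), at -0.97 in the TruSeq and -0.39 in the Nugen animals. Egr1, a zinc finger transcription factor, was lower in the fit of 29 animals (-0.97, q = 0.0350) with -1.63 in the TruSeq and 0.0019 in the Nugen animals. Fos (-0.73), the partner of Jun, Dusp6 (-0.62), a phosphatase of ERK, Ier5 (-0.62), and Zfp36 (-0.58), a destabilizer of mRNA, were lower too. Errfi1, a feedback inhibitor of the EGF receptor (0.83), and Id2, an inhibitor of helix-loop-helix factors (0.49), were higher. The median of the list was -0.24 in the fit of 29 animals, -0.41 in the TruSeq animals, and 0.019 in the Nugen animals, and the difference between the kits was not tested for the list. Without K1 it was -0.14. For scale, the mean of Jun was 11.52 in IBA, 10.75 in Ent, and 12.63 in LAr, the reference state that precedes IBA, and that of Fos was 8.81, 8.08, and 10.41.

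Related signaling groups also had more members that fell than rose, with medians near 0 in the Nugen animals. Srf, the serum response factor that drives immediate early and actin genes, had 9.98, 9.84, 9.57, 9.86, and 10.03 in Ent and 10.31, 10.31, 10.34, 10.18, and 10.28 in IBA, and did not overlap (difference -0.43, SE 0.07, q = 4.11e-04). Of 45 genes of the actin cytoskeleton and SRF targets, 7 fell (15.6%, against 7.61% of all genes) and none rose, with the actin cross-linker Actn1 at -0.86, cytoplasmic actin Actg1 at -0.53, and the monomer-binding Pfn1 at -0.29. The median over that list was -0.12, at -0.22 in the TruSeq and -0.0073 in the Nugen animals, and -0.062 without K8. Of 54 NF-kB and TGF-beta genes, 7 fell (12.96%) and 2 rose (3.70%), with a median of -0.13 that was -0.15 in the TruSeq and -0.0046 in the Nugen animals. Irf1, an interferon regulatory factor, had 8.45, 8.49, 8.50, 8.42, and 8.63 in Ent and 9.60, 9.33, 9.30, 9.07, and 8.91 in IBA (difference -0.74, SE 0.14, q = 0.00154). Its 5 Ent animals were nearly equal, while the IBA animals ranged more widely above them. Socs3 (-0.67), a feedback inhibitor of cytokine signaling, Stat3 (-0.64), Tgfb1 (-0.53), Nfkb2 (-0.45), and Nfkb1 (-0.39) were lower, whereas the ubiquitin ligase Traf6 (0.37, q = 7.61e-04) and the ligand Bmp4 (0.40) were higher. Macrophage markers were lower in Ent for 6 of 6 genes (median -0.30), without any at q under 0.05, and their part in these results was not tested. Without K7, the animal with the highest macrophage mean, 47 genes in all passed q under 0.001.

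Markers of tubule injury varied widely between the animals of each state. Havcr1, which encodes kidney injury molecule 1, had 8.04, 6.22, 6.48, 8.14, and 6.89 in Ent and 8.48, 8.71, 10.30, 7.35, and 8.02 in IBA. The states overlapped, and the highest value was that of K7 (difference -1.42, SE 0.37, q = 0.0151). The difference was -1.85 in the TruSeq and -0.29 in the Nugen animals. Clu, the chaperone clusterin, had 13.76, 14.34, 12.65, 13.62, and 12.97 in Ent and 14.63, 14.27, 14.66, 14.91, and 13.05 in IBA, with overlap (difference -0.84, SE 0.33, q = 0.0880). Lcn2 (-0.54, q = 0.590), the secreted protein NGAL, Vcam1 (-0.51, q = 0.287), an adhesion molecule, and Spp1 (-0.15, q = 0.792), osteopontin, did not pass either. Of the 24 injury and repair genes, Havcr1 and the keratin Krt18 (-0.56) were the 2 at q under 0.05, both lower, a share of 8.33% that is close to the 7.61% of all genes that fell.

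Among the genes that were higher in Ent at q under 0.001, the largest differences belonged to genes of varied function, many of them very long. The largest was LOC110597530, a gene without a known name, at 8.39, 8.13, 8.32, 8.20, and 7.65 in Ent and 7.16, 6.80, 6.80, 5.96, and 7.26 in IBA (difference 1.34, SE 0.21, q = 4.11e-04). Asb5, a substrate adaptor of ubiquitin ligases, had 8.37, 8.05, 8.43, 7.81, and 7.73 in Ent and 7.08, 7.12, 7.16, 7.60, and 7.37 in IBA (difference 0.81, SE 0.14, q = 9.10e-04). In Asb5 the difference was wide in the TruSeq animals (1.21) and narrow in the Nugen animals (0.34). Smyd3, a lysine methyltransferase, had 8.56, 8.54, 8.39, 8.26, and 8.45 in Ent and 7.85, 7.68, 7.37, 7.74, and 7.73 in IBA (difference 0.77, SE 0.12, q = 4.86e-04). Slc25a21, a mitochondrial carrier of oxodicarboxylates, had 8.70, 8.79, 9.12, 8.53, and 8.87 in Ent and 8.20, 8.09, 8.20, 7.91, and 8.15 in IBA (difference 0.69, SE 0.11, q = 3.31e-04). Fars2, the mitochondrial phenylalanyl-tRNA synthetase, had 9.79, 9.85, 9.59, 9.42, and 9.54 in Ent and 8.76, 9.13, 8.81, 8.82, and 9.33 in IBA (difference 0.67, SE 0.11, q = 7.24e-04). As the choice required, none of these genes overlapped between the states, although K171 came close to the Ent animals in Fars2. Wwox, an oxidoreductase and tumor suppressor, had 10.09, 9.79, 9.73, 9.64, and 9.89 in Ent and 9.50, 9.29, 9.05, 8.99, and 9.28 in IBA (difference 0.61, SE 0.09, q = 2.64e-04), and the Ent animals were again all above the IBA animals.

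Cilium and axoneme genes were the list with the most members that rose. Primary cilia are antennae of tubule cells that are built by intraflagellar transport, and motile cilia carry the dynein arms of the axoneme. Of 84 measured genes, 16 were higher in Ent at q under 0.05 (19.0%, against 5.52% of all genes) and 2 were lower. Cfap70, an axonemal protein, had 8.30, 8.24, 8.19, 8.12, and 8.18 in Ent and 7.49, 7.59, 7.36, 7.47, and 7.60 in IBA, a gap several times the spread within either state (difference 0.71, SE 0.10, q = 2.54e-04). Dync2h1, the motor of retrograde intraflagellar transport, had 9.84, 10.12, 10.08, 9.98, and 9.56 in Ent and 9.15, 9.28, 9.08, 9.19, and 9.06 in IBA (difference 0.77, SE 0.15, q = 0.00230). It did not overlap between the states. Intraflagellar transport genes Ift88 (0.45), Ift80 (0.39), Wdr35 (0.35), Ift57 (0.34), and Ift74 (0.29), and the BBSome genes Bbs9 (0.49), Bbs5 (0.33), and Bbs2 (0.27) rose as well. Those that fell were the transcription factor Rfx1 (-0.54) and Cluap1 (-0.24), which is also a transport protein. The median over the list was 0.12, at 0.17 in the TruSeq and 0.018 in the Nugen animals. Dnah6, an axonemal dynein chain that is not in the list but among the 15 largest increases, had 7.36, 7.31, 7.50, 7.19, and 7.14 in Ent and 6.65, 6.81, 6.71, 6.71, and 6.86 in IBA (difference 0.55, SE 0.08, q = 2.72e-04).

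Genes of the respiratory chain, mitochondrial ribosomes, and fatty acid oxidation had small positive medians, and most of their members did not pass the test. Of 66 nuclear genes of the respiratory chain and ATP synthase, 64 had a positive difference (median 0.16), but only Ndufa7 of complex I (0.23), Sdhb of complex II (0.22), and UQCRC1 of complex III (0.19) passed q under 0.05, which is 4.55% against 5.52% of all genes. The median was 0.24 in the TruSeq and 0.017 in the Nugen animals, and 0.099 without K8. Of 80 mitochondrial ribosomal proteins, 7 rose (8.75%, against 5.52% of all genes), for example Mrpl57 (0.40), and 2 fell. Their median of 0.079 was 0.16 in the TruSeq and -0.049 in the Nugen animals, and it was 0.0205 without K1, 0.036 without K8, and 0.12 without K7. Of 45 fatty acid oxidation genes, 4 rose (8.89%, against 5.52% of all genes). Acsl4, an acyl-CoA synthetase, fell (-0.34), a share of 2.22% against 7.61% of all genes. Of the 45, 38 were above 0 (median 0.16, with 0.22 in the TruSeq and 0.13 in the Nugen animals). Acox2, a peroxisomal oxidase of branched-chain fatty acids, had 14.37, 14.27, 14.50, 14.32, and 14.08 in Ent and 13.89, 13.998, 13.70, 13.80, and 13.78 in IBA, without overlap (difference 0.48, SE 0.10, q = 0.00359). Hsd17b4 (0.37), Etfdh (0.31), and Decr2 (0.30), enzymes of peroxisomal and mitochondrial fat breakdown, also rose. These genes are abundant in proximal tubule, and the proximal tubule markers were themselves higher in Ent for 10 of 10 genes (median 0.31), at animal means of 14.3 to 15.1 in Ent and 13.9 to 14.8 in IBA, with none at q under 0.05. Their part in these results was not tested.

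Among smaller groups, Cirbp, the cold-inducible RNA-binding protein, had 13.09, 13.12, 12.90, 12.80, and 12.96 in Ent and 12.46, 12.41, 12.39, 12.59, and 12.48 in IBA, with the Ent animals all higher (difference 0.51, SE 0.10, q = 0.00236), and it was the only 1 of 6 cold-inducible and CLK kinase genes to pass. Psat1, an enzyme of serine synthesis, had 12.37, 12.18, 12.52, 12.13, and 12.40 in Ent and 11.80, 11.76, 11.50, 11.57, and 11.85 in IBA (difference 0.62, SE 0.11, q = 0.00128), and Psph, the next enzyme of the pathway to pass, was 0.63 higher. Both belong to the integrated stress response list, in which the transcription factors Atf4 (-0.34) and Cebpg (-0.43), the secreted Gdf15 (-0.57), and the amino acid transporter Slc7a1 (-0.75) were lower. Of its 24 genes, 2 rose (8.33%, against 5.52% of all genes) and 4 fell (16.7%, against 7.61%). Arrdc3, an arrestin-like gene of the FoxO and fasting response, had 11.23, 11.21, 11.43, 11.48, and 11.53 in Ent and 12.20, 11.81, 11.78, 12.79, and 12.15 in IBA (difference -0.77, SE 0.17, q = 0.00526). It did not overlap, and its highest value was that of K104. In that list Trib1, Arrdc4 (-0.37), and Akt1 (-0.18) also fell and the mTOR inhibitor Deptor (0.29) and the PI3 kinase subunit Pik3r1 (0.30) rose. Of its 41 genes, 4 fell (9.76%) and 2 rose (4.88%), shares close to those of all genes. Of 23 clock genes, 1 rose and 1 fell (4.35% each), the latter being the kinase Csnk1d (-0.35, q = 8.35e-04). Of 63 transport genes, 2 rose (3.17%, against 5.52% of all genes) and 1 fell (1.59%, against 7.61%), both shares below those of all genes. Slc1a1, the glutamate transporter of the tubule, had 12.65, 12.30, 12.38, 12.31, and 12.41 in Ent and 12.13, 12.16, 11.79, 11.80, and 12.16 in IBA (difference 0.40, SE 0.10, q = 0.00886). Slc15a2 rose by 0.46, and the calcium channel Trpv6 fell (-0.55).

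In the remaining lists fewer members passed or both directions were present, to be read beside 5.52% of all genes higher and 7.61% lower. DNA repair had 6 of 74 members higher and 6 lower (8.11% each), with the end-joining ligase Lig4 (-0.53, q = 1.96e-04) lower and the excision nuclease subunit Ercc1 (0.37) higher. Autophagy and lysosome genes had 3 of 51 higher (5.88%) and 6 lower (11.8%), cell division and replication 1 of 52 higher (1.92%) and 6 lower (11.5%), antioxidant genes 1 of 36 higher and 2 lower, with Gclc of glutathione synthesis at -0.43 (q = 5.53e-04), and ubiquitin ligases and deubiquitinases 8 of 231 higher (3.46%) and 22 lower (9.52%). Genes of ER to Golgi transport had 4 of 73 higher, with the coat subunit Copg2 at 0.45 (q = 1.85e-04), and 1 lower. None of 37 proteasome subunits passed q under 0.05 in limma, and 1 had an unadjusted p under 0.05. One gene fell in the hypoxia (P4ha2, -0.44) and the medullary list (Hspa4l, -0.38), 1 rose in triglyceride storage (Dgat1, 0.30), and cholesterol synthesis had 1 of each (Ebp, 0.30, and Mvd, -0.28).

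**Figure D2:**
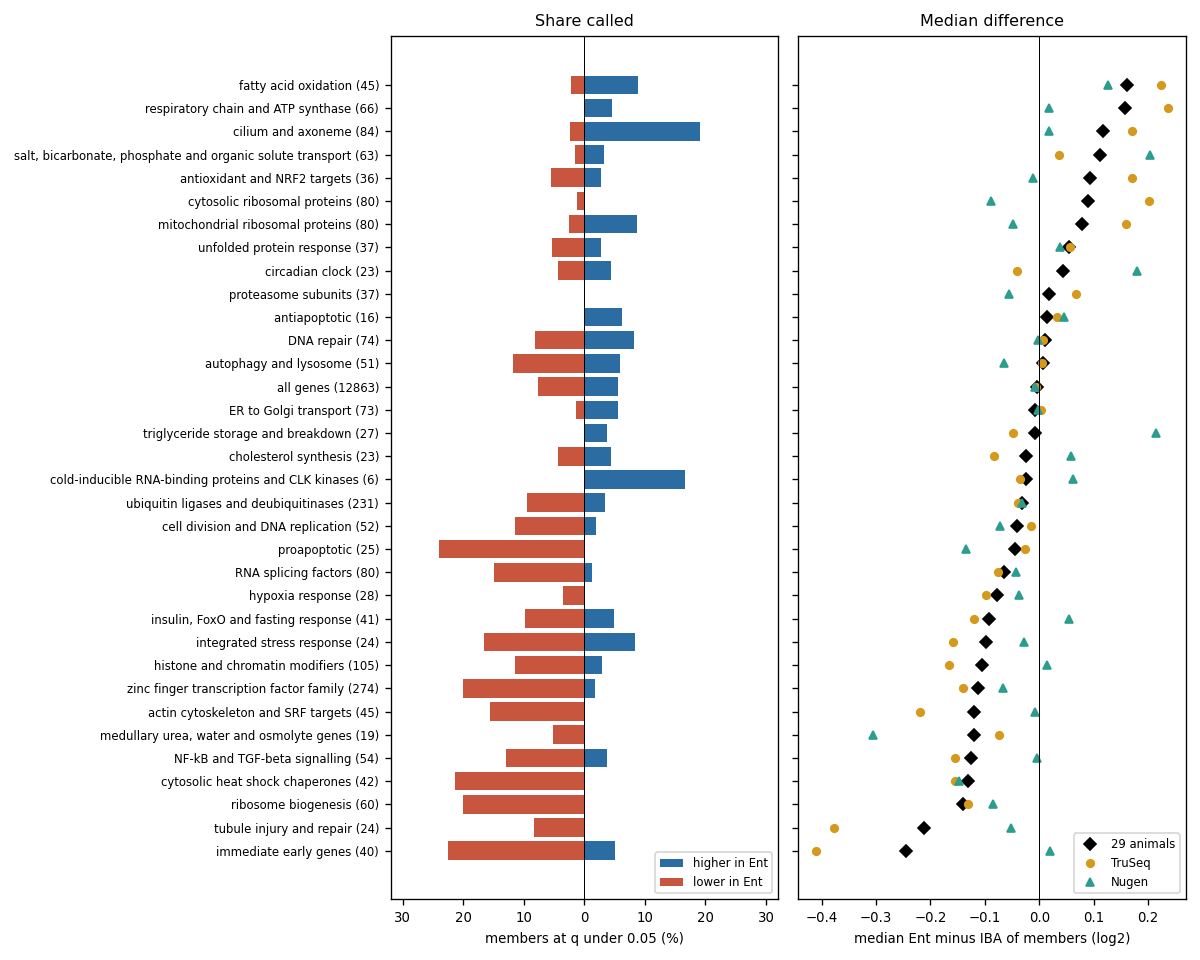
Left, percent of the measured members of each gene list (number in parentheses) at q under 0.05, higher in Ent (blue) or lower in Ent (red). Right, median log2 difference, Ent minus IBA, in the fit of 29 animals (diamonds), the TruSeq animals (circles), and the Nugen animals (triangles). Cilium genes have the longest bar among lists of more than 6 genes higher in Ent (19.0%) and proapoptotic genes the longest bar lower in Ent (24.0%), and for several lists the median of the Nugen animals is near 0.

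The genes called in the opposite directions differed in length. The span of a gene, its first to last exon with introns, was read from RefSeq gene models of mIctTri1.hap1, another assembly than that of the reads, and was found for 11207 genes (87.1%). This description was chosen after the called genes were seen and carries no test. The median span was 25.9 kb over all genes, 281 kb for the genes higher in Ent at q under 0.001 (26 of 32 with a span), and 12.3 kb for those lower in Ent (60 of 64). Of the 26 genes that rose, 12 spanned at least 300 kb (46.2%), as against 2.97% of all genes and 0 of the 60 that fell. They included Wwox at 862 kb, Smyd3 at 684 kb, Myo3b, a class III myosin, at 506 kb, Slc25a21 at 498 kb, Fars2 at 491 kb, Spidr, a scaffold of homologous recombination, at 378 kb, and Nek11, a kinase of the DNA damage checkpoint, at 308 kb. Among those that fell, Tnfrsf12a spanned 1.94 kb, Btg2 3.91 kb, Fadd 4.57 kb, and Trib1 7.93 kb.

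The same gradient ran through all genes at q under 0.05 with the kits fitted together. The share higher in Ent was 3.51% of the 2733 genes under 10 kb, 4.75% at 10 to 30 kb, 4.87% at 30 to 100 kb, 7.95% at 100 to 300 kb, and 15.02% of the 333 genes of 300 kb or more. The share lower in Ent went from 10.4% through 9.80%, 6.68%, and 4.19% to 1.80%. In the longest class, 19.82% of genes had an unadjusted p under 0.05 and were higher in Ent among the TruSeq animals and 21.9% among the Nugen animals, against 5.41% and 1.502% lower. The median difference of that class was 0.12, at 0.13 in the TruSeq and 0.15 in the Nugen animals. Those of the 4 shorter classes lay between -0.024 and 0.01, but there the kits differed. By rising span, their medians were 0.020, -0.029, -0.038, and -0.033 in TruSeq and -0.063, -0.022, 0.012, and 0.071 in Nugen. The shares higher at an unadjusted p under 0.05 were 6.8%, 7.5%, 5.8%, and 8.7% in TruSeq and 3.9%, 6.4%, 7.8%, and 12.7% in Nugen. The shares lower went from 10.8% to 8.0% in TruSeq and from 12.6% to 3.5% in Nugen. Below 300 kb the gradient was thus weak in TruSeq and clear in Nugen. The longest genes were also split by expression level, at q under 0.05 with the kits fitted together. In the lower, middle, and upper tertile, 13.4%, 18.6%, and 12.3% of them were higher in Ent and 0.746%, 2.54%, and 2.47% lower. For the shorter genes the gradient was not seen in the upper tertile, where 4.64% of genes under 10 kb were higher and 5.69% lower (median 0.059), and the share lower was 5.40%, 5.73%, and 4.85% in the next 3 classes. Over all genes the correlation of the logarithm of span with the difference was weak (Pearson's r = 0.083 across 11207 genes, which are not independent). Cilium genes are long (median 42.4 kb, and 85.8 kb for the 16 that rose). The zinc finger family had a shorter median than all genes (19.7 kb, against 25.9 kb) and fewer genes of 300 kb or more (1.95%, against 2.97%). At the lower end it was not shorter, with 21.9% under 10 kb, against 24.4% of all genes. Without that family the genes lower at q under 0.05 had a median span of 17.3 kb, the same as with it.

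In single animals, the genes of 300 kb or more were compared with all genes that have a span, each gene relative to its mean over the 29 animals. The median of the long genes minus that of all genes was -0.081 in K1, -0.017 in K4, -0.21 in K7, -0.16 in K104, and -0.10 in K171 among the IBA animals. The Ent animals had 0.098 (K2), 0.0017 (K5), -0.021 (K8), 0.041 (K155), and 0.020 (K167). By this measure the states overlapped in that K4 was slightly above K8. When the long genes were set against genes under 10 kb instead, the overlap was wider, as K4 (0.028) and K1 (-0.021) in IBA were above K8 (-0.029) and K5 (-0.056) in Ent. LAr animals lay between -0.043 and 0.017, SpD animals between -0.032 and 0.099, and the 4 SA animals between -0.071 and 0.073. In the plot of long genes, 4 of the 5 IBA animals were lower than every animal of these 3 reference states.

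**Figure D3:**
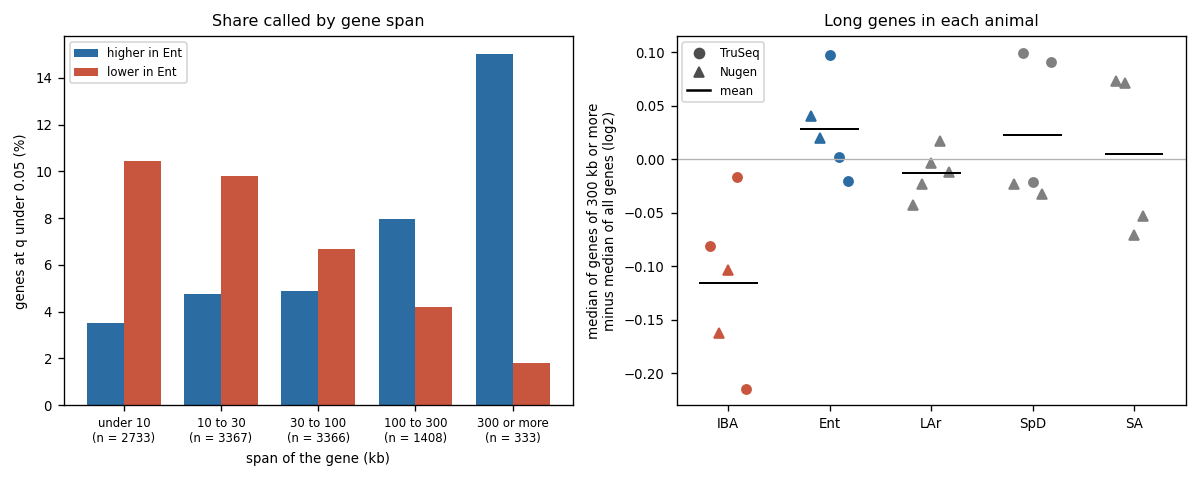
Left, percent of genes at q under 0.05 that were higher (blue) or lower (red) in Ent than in IBA, by the span of the gene in kb. Right, for each animal, the median level of genes of 300 kb or more minus the median of all genes with a span (log2, each gene relative to its mean over 29 animals), with circles for TruSeq and triangles for Nugen libraries and a line at the mean of each state. The share higher in Ent rises from 3.51% to 15.02% and the share lower falls from 10.4% to 1.80%, and the IBA animals lie between -0.21 and -0.017.

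The reference states placed the called genes. Of the 64 genes lower in Ent at q under 0.001, the IBA mean was above those of LAr, SpD, and SA alike in 47, and the Ent mean was below all 3 in 48. Of the 32 genes higher in Ent, the IBA mean was below all 3 in 28, and the Ent mean above all 3 in 23. At q under 0.05, IBA stood outside the 3 references in the direction of the call for 522 of 710 genes higher in Ent (73.5%) and 711 of 979 lower (72.6%), and Ent for 327 (46.1%) and 545 (55.7%). Choosing genes by a difference between Ent and IBA raises all of these shares, which over all genes were 23.5% and 24.99% for IBA and 17.4% and 19.82% for Ent, and no test was made of them.

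Both kits were then examined apart. The kits mark separate animals, laboratories, and sequencing instruments, so that these cannot be told apart. Sex was also uneven between the kits, as the IBA males K4 and K7 both had TruSeq libraries. Each kit was fitted with the animals of its other states, which share the estimate of the spread and of a term for sex. Differences within a kit are therefore adjusted for sex and can depart from those of the listed values. In the 3 Ent and 3 IBA animals with TruSeq libraries, limma called 13 genes at q under 0.05 (0.101%) and none at q under 0.001, and 2324 had an unadjusted p under 0.05 (18.1%). Of the 13, 12 had the same sign in the Nugen animals and 6 of them an unadjusted p under 0.05 there. In the 2 Ent and 2 IBA animals with Nugen libraries, 33 genes passed q under 0.05 (0.257%), none passed q under 0.001, and 2065 had an unadjusted p under 0.05 (16.1%). All 33 had the same sign in the TruSeq animals, 17 of them with an unadjusted p under 0.05. Over all genes, 63.9% had the same sign. Among the genes with an unadjusted p under 0.01 in TruSeq, 81.0% of 851 had the same sign in Nugen, and of 693 such genes in Nugen, 88.6% had the same sign in TruSeq.

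**Figure D4:**
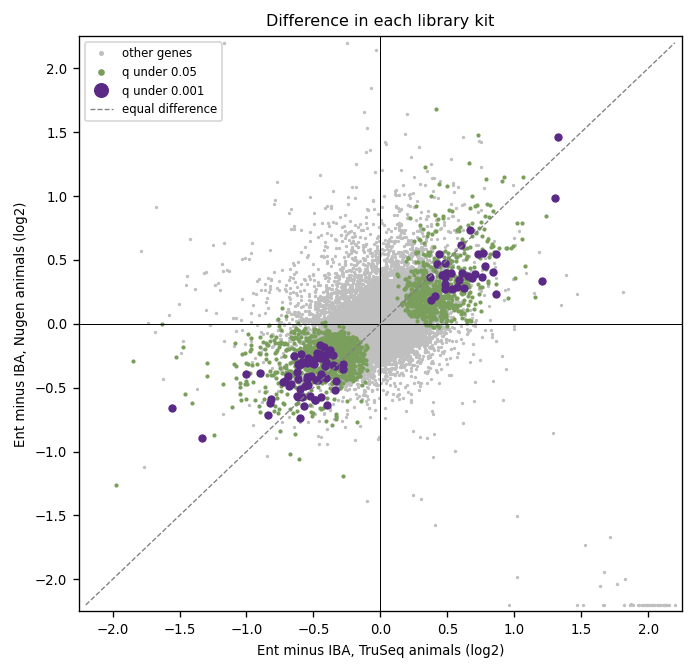
Log2 difference, Ent minus IBA, of each gene in the TruSeq animals (horizontal) and the Nugen animals (vertical). Purple points are genes at q under 0.001, green points genes at q under 0.05 in the fit of 29 animals, and grey points other genes, and 34 genes beyond 2.2 are drawn at the edge. All 96 purple points have the same sign in both kits, which their choice in a fit of both kits favors. A separate cloud of genes without a symbol lies at the lower right.

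No gene differed between the kits in its Ent minus IBA difference at q under 0.05 in limma, while 1140 genes had an unadjusted p under 0.05 for the interaction (8.86%). The lowest p values were those of Rhob, a small GTPase induced by stress (-0.40 in TruSeq and 0.53 in Nugen), LOC110599459 (-1.67 and 0.91), and G38911 (1.29 and -0.86). The correlation of the differences in the kits over genes was 0.090 (Pearson's r) or 0.38 (Spearman's rho). The former rested on a block of 40 genes, chosen after seeing the values, that were over 1 higher in Ent in TruSeq and over 1 lower in Nugen. Without them Pearson's r was 0.35, a rise that their choice by opposite differences in the kits builds in. All 40 lacked a gene symbol, and one of them is listed as containing MALAT1, an abundant nuclear RNA. Their median level was 9.45, 8.95, 9.81, 6.95, and 6.76 in the Ent animals and 7.98, 7.39, 7.36, 9.15, and 10.3 in the IBA animals, and over the animals of LAr it ranged from 6.87 to 10.5. The choice fixes the contrast between the kits in Ent and IBA, but it did not select on the LAr animals. None of the 40 was among the genes at q under 0.05, which their opposite signs favor.

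Sex gave no gene at q under 0.05 for a different change in males and females in limma, with 990 at an unadjusted p under 0.05 (7.70%). The groups are small, with 2 males per state. Both IBA males had TruSeq libraries and the Nugen IBA animals were all female, so sex and kit are partly mixed. The lowest p values belonged to Nr1d1, the clock repressor REV-ERB alpha, Nr3c2, the mineralocorticoid receptor, and Acvr1b, an activin receptor (all q = 0.644). The RNase P RNA, a structural RNA that processes tRNA, had a mean of 5.57 in IBA and 5.82 in Ent (difference 0.25, q = 0.355).

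Cell type markers were compared to see whether the kidney pieces differed in makeup. None of the 62 genes in the 12 marker lists passed q under 0.05 in limma and 3 had an unadjusted p under 0.05, with the lowest q at 0.0808 among macrophage genes. The inner medulla markers had a median difference of -0.30, at animal means of 9.33 to 10.8 in Ent and 9.50 to 12.0 in IBA, and those of fibroblasts and smooth muscle -0.14, with 8 of 10 below 0. Thick ascending limb (0.096), principal cell (-0.076), intercalated cell (-0.091), and endothelial markers (-0.089) had medians near 0, and the 3 distal convoluted tubule markers had 0.26. Single genes stood for lymphocytes (Cd79a, 0.095) and adipose tissue (Fabp4, 0.30), so that these lists were too small to be read. Without K104, the animal richest in inner medulla markers, 49 genes passed q under 0.001. All 96 genes of the main fit kept their sign there, which their choice from these same animals favors. The part of these markers in the results was not tested.

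**Figure D5:**
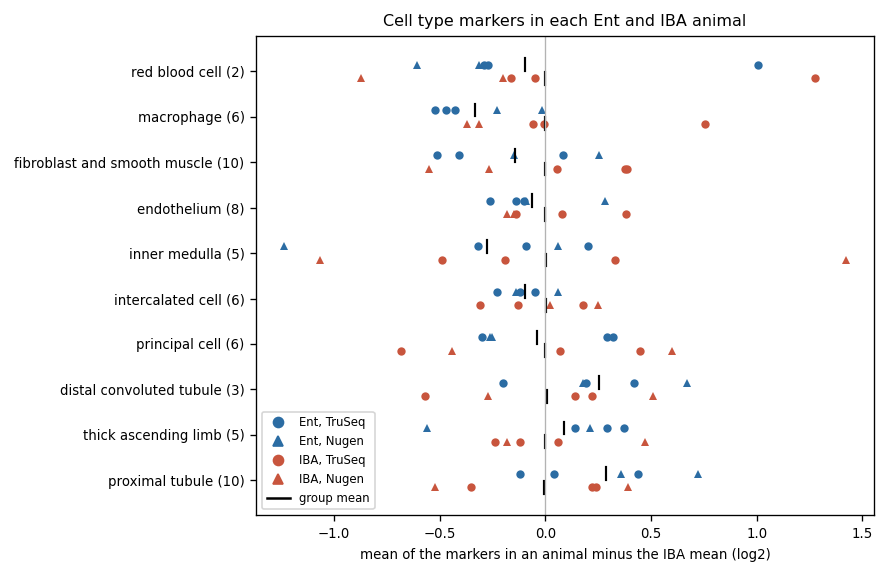
Mean level of the markers of each cell type (number of genes in parentheses) in each Ent (blue) and IBA (red) animal, relative to the mean of the 5 IBA animals (log2), with circles for TruSeq and triangles for Nugen libraries and black bars for group means. The proximal tubule mean is 14.7 in Ent and 14.4 in IBA, the states overlap for every cell type, and the highest values are those of K104 for inner medulla, K7 for macrophages, and K7 and K5 for red blood cells, while K167 is lowest for thick ascending limb.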

How the data were processed

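Kidney RNA of 31 squirrels in 6 states was analysed, each library being 1 animal, and the members and gene lists were chosen with earlier results of these data known. Per the methods and labels, the authors selected polyadenylated RNA, made stranded TruSeq or Nugen libraries, applied cutadapt for trimming and HISAT2 to discard mitochondrial reads, quantified HiC_Itri_2 transcripts with Salmon, and summed them to genes. The values deposited by the authors are DESeq2 rlog values on the log2 scale, batch-corrected with limma. The rlog shrinks differences of low genes, and the correction was applied to remove the mean difference between kits. Offsets between kits remained within a state for some genes. For example, the RNase P RNA had 6.54, 6.39, and 6.40 in the TruSeq Ent animals and 5.15 and 4.64 in the Nugen Ent animals. Counts were not used here, sequencing depth is unknown, and the errors are those between animals. The table holds no columns of the authors' comparisons. One state that entered the fit and some genes covered by the naming rule are not reported here.

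A model in limma 3.58.1 (R 4.3.3) was fitted to 29 animals (without K113 and K137) with state, kit, and sex as terms and an intensity trend, and q is the Benjamini-Hochberg adjusted p over 12863 genes. The thresholds were 0.001 for single genes and 0.05 for lists. The fit was tested on simulated data. Differences between kits and between sexes were tested as interaction terms in the 29 animals. Named genes are those with a symbol at q under 0.001, no overlap, and one sign in both kits (15 largest in each direction), up to 5 members of each list at q under 0.05 and all at q under 0.001, the cell type markers, 7 fixed names, and the 3 lowest interaction p values. List members beyond these, and K104 and K7, were named after their values were seen. Gene spans were matched by LOC number or symbol. Alternatives were all 31 animals, the 10 animals, each kit, no kit term, no sex term, no trend, a robust prior, animal weights, median centering, genes with a mean of at least 8, a threshold of 0.01, and each animal left out. Promoter and protein sequences were not analysed here.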

Additional observations from a re-analysis of the deposited data

Results flagged for a closer look

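Within a group of 5 animals, 1 animal stood apart from the other 4 in 5 of the 86 groups examined (31 genes and 12 marker lists in each state), and chance alone gives about 5% of groups. Trib1 was 10.74 in the IBA animal K1, against 10.23 to 10.29 in the other IBA animals. Sqstm1 was 12.85 in the Ent animal K8 (13.32 to 13.38 in the others), and Smg5 was 10.42 in the same animal (10.88 to 10.93). For both genes the animal apart lies on the side of the difference, and without K8 the fit gave 44 genes at q under 0.001. The thick ascending limb markers were at 11.77 in the Ent animal K167 (12.47 to 12.70 in the others), and the 2 red blood cell markers at 10.87 in the Ent animal K5 (9.26 to 9.60).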

How the results depend on the processing

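The count of 96 genes at q under 0.001 became 22 with all 31 animals, 0 with the Ent and IBA animals only, with the TruSeq animals only, and with the Nugen animals only (37, 13, and 33 genes at q under 0.05 by limma, and 2486, 2324, and 2065 at an unadjusted p under 0.05), 871 with animal weights, 500 at a threshold of 0.01, and 59 without IBA animal K104 and SpD animal K130, an alternative chosen after seeing the data. Over the fits that left out 1 Ent or IBA animal it ranged from 15 (without K1) to 140 (without K171), with 24 without K4, 29 without K2, 43 without K167, 44 without K8, 47 without K7, 49 without K104, and 53 without K155. Median centering gave 36 higher and 40 lower genes in place of 32 and 64. The other alternatives gave counts within 1.5 times the main one. In each alternative that tested all 96 genes, all kept their sign, which their choice from these same animals favors. No paired analysis was possible because each animal was sampled once, in a single state. Among named genes outside the 96, the direction turned for LOC110599459 (0.91) and G38911 (-0.86) in the Nugen animals, for Rhob in the TruSeq animals (-0.40), with animal weights (-0.24), without K104 and K130 (-0.12), and without single animals (range -0.12 to 0.11), for Spp1 with animal weights (0.038), without K104 (0.050, range -0.40 to 0.050 over single animals left out), and without K104 and K130 (0.079), and for Nr3c2 with animal weights (0.043) and without K1 (0.010, range -0.29 to 0.010 over single animals left out). The causes were not tested. Counts per gene are unknown, so no limit from depth can be given.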
